A study of Mus musculus with 2 samples.

Results

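The genes described here are those of the epidermal differentiation complex of the mouse, together with the S100A genes that flank it. They were taken as the genes listed on chromosome 3 whose names begin with Sprr or with Lce and a digit, the S100a genes named by a number alone, and Lor, Ivl, Flg, Flg2, Hrnr, Rptn, Crnn, Crct1, Pglyrp3 and Pglyrp4, without pseudogenes. The rule found 59 of the 49492 genes in the table. On GRCm38 they lay between positions 90511034 and 93564643, a span of 3.05 Mb, and all 59 had the same start and end in GENCODE M21.

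Mammary basal cells were sorted from the glands of adult female wild-type mice, embedded in matrix gel as primary cells and grown for 10 days into colonies/organoids. The control library came from cells with no added cytokine and the other from cells given recombinant mouse TNF-α at 10 ng/mL, while EGF and ITS (insulin, transferrin and selenium) were in the medium of both. There was 1 library per condition, and neither the strain nor the number of mice behind each is given in the sources used here. No difference below therefore has a replicate check, and an effect of TNF-α and a difference between single cultures cannot be told apart. The deposited values are read counts per gene, with a total of 44462275 for the control and 53487087 for TNF-α.

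The epidermal differentiation complex is the gene cluster that stratified epithelia use to build the cornified envelope, the cross-linked protein shell of a dead surface keratinocyte. Involucrin, loricrin, the small proline-rich proteins (Sprr) and the late cornified envelope proteins (Lce) are the bricks of that shell, and filaggrin and its relatives bundle keratin filaments beneath it. The S100 proteins encoded on either side are small calcium sensors that bind annexins, myosins and cell surface receptors, and many tissues express them. The mammary gland is not a cornified tissue, although its epithelium shares its origin and several keratins with the epidermis.

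In these colonies/organoids most S100A genes were well counted, with 9 of 13 at 200 counts or more. None of the 11 S100A genes compared lay past 2-fold in either direction, where 15.2% of all genes compared did, so a count of 0 among 11 genes is near that background. Several envelope and filaggrin-type genes were much lower in the TNF-α library, led by Ivl at a log2 ratio of -2.53, Flg at -3.95 and Rptn at -3.27. Pglyrp3 was the 1 member more than 2-fold higher, at a log2 ratio of 3.16.

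**Figure D1:**
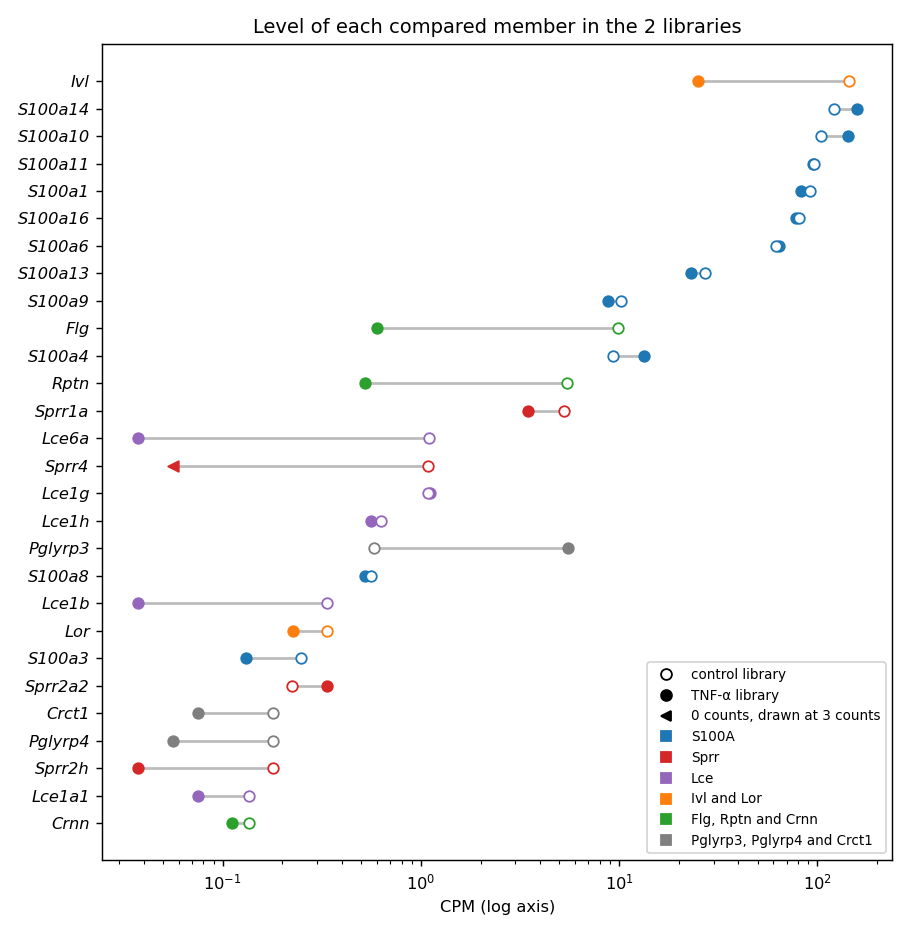
Level of each of the 28 compared members in CPM (counts divided by the scaled library size, log axis), open circles for the control library and filled circles for the TNF-α library, coloured by family. The paired points of the 9 most counted S100A genes lie close together, while Ivl, Flg, Rptn, Lce6a and Sprr4 lie far to the left with TNF-α and Pglyrp3 far to the right. Sprr4, with 0 counts in the TNF-α library, is drawn at 3 counts.

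Of the 59 members, 28 had at least 10 counts summed over both libraries and were compared. Ratios are log2 of TNF-α over control, taken from CPM after TMM scaling with a prior count of 2. The folds given for single genes are ratios of CPM without that prior count, so they can be larger than the log2 ratios beside them. Each interval is the 95% Clopper-Pearson interval of the ratio and covers counting error only. Amplified reads may stem from the same molecule, and the sources used here do not say whether they carried molecular identifiers. A gene past 2-fold is one with a log2 ratio above 1 or below -1. More than 2-fold lower with TNF-α were 8 of the 28 members (28.6%), beside 6.62% of all 20771 genes compared. More than 2-fold higher was 1 member (3.57%), beside 8.56% of all genes, and 15.2% of all genes lay past 2-fold in one direction or the other. Ivl, Flg, Rptn and Pglyrp3 had at least 10 counts in each library. The other 5 of these 9 are Sprr4, Lce6a, Lce1b, Sprr2h and Pglyrp4, and most or all of their counts came from the control library. Sprr4, Lce6a and Lce1b reached the minimum of 10 on control counts alone. Sprr2h (8 and 2 counts) and Pglyrp4 (8 and 3) reached it only with both libraries summed. A filter on the sum does not require a difference, but it takes in genes that are high in 1 library alone. With a minimum of 200 counts, 3 of 14 members were lower and 1 was higher, beside 2.87% and 4.01% (6.88% in all) of the 13609 genes at that depth. Ivl had over 200 counts in each library, whereas Flg and Rptn reached that minimum through their control counts and Pglyrp3 through its TNF-α counts. Each of these 3 thus passed because of the library in which it was high, although this minimum did not require a difference either. Of the 28 members, 6 were lower and 1 was higher with their whole interval past 2-fold, beside 2.7% and 3.74% of all genes. The median log2 ratio was -0.22 over the 28 members, -0.046 over the 11 S100A genes and -0.93 over the other 17, beside 0.0038 over all genes. The median of -0.93 is the value of Crct1, which had 8 and 4 counts. That median was -1.16 with a prior count of 0.5 and -0.67 with a prior count of 5.

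**Figure D2:**
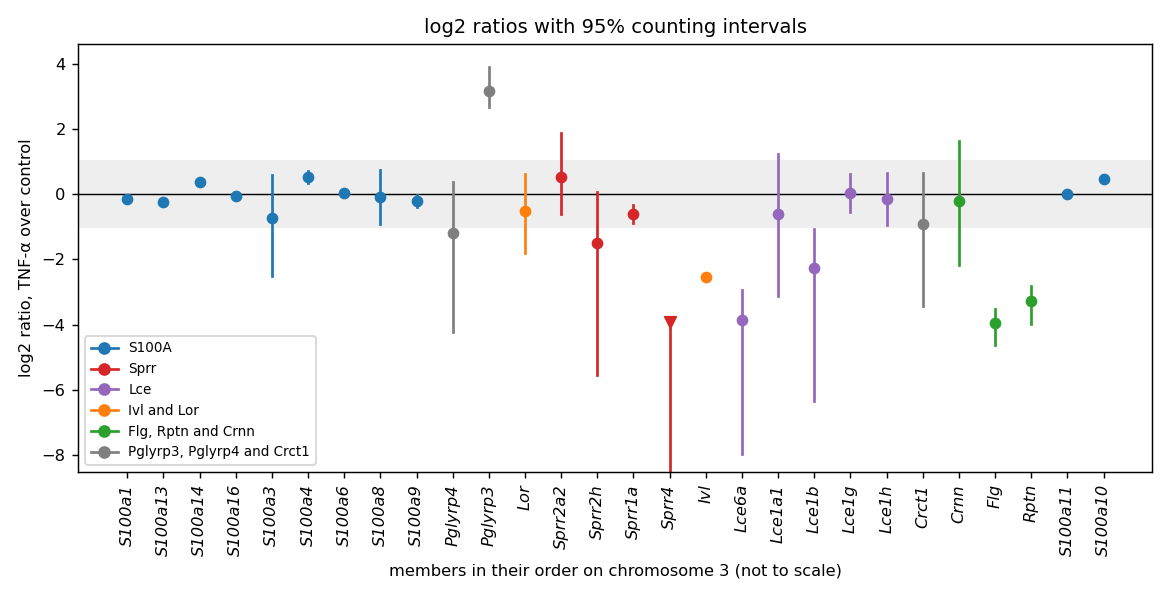
log2 ratio of TNF-α over control for the 28 compared members in their order on chromosome 3, with 95% intervals for counting error as vertical lines. The grey band marks ratios within 2-fold. The ratios of the S100A genes at both ends stay inside the band, but the interval of S100a3 (-2.52 to 0.59) reaches below it. Ivl, Lce6a, Lce1b, Flg and Rptn lie below the band with their whole interval. The triangle of Sprr4 marks the upper end of its interval.

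Ivl encodes involucrin, an early scaffold onto which the other envelope proteins are cross-linked by transglutaminases. It lies on chromosome 3 from 92570902 to 92573735 on the minus strand. It had 6467 control counts and 1341 with TNF-α, or 145.1 and 25.1 CPM, so it was 5.77-fold lower with TNF-α (log2 ratio -2.53, interval -2.62 to -2.44). Per length, in TPM (counts divided by gene length and scaled to the same total in each library), it ranked 4 among the members in the control library, at 213.1 TPM, and 10 with TNF-α, at 35.7 TPM. Among the members outside the S100A family, Ivl alone held 84.2% of the control counts (95% Wilson interval 83.4% to 85%) and 65.7% of the TNF-α counts (63.6% to 67.8%). As this is bulk RNA, fewer cells that express such a gene and less of its RNA per cell cannot be told apart.

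Flg encodes profilaggrin, which is processed to filaggrin, the protein that packs keratin filaments in the uppermost epidermis. It spans 93273523 to 93293686 on the plus strand. It had 440 control counts and 32 with TNF-α, so it was 16.5-fold lower with TNF-α (log2 ratio -3.95, interval -4.61 to -3.52). Its level per length was low in both, at 1.48 and 0.0871 TPM. Rptn encodes repetin, a protein of the same S100-fused type, with calcium-binding domains of the S100 kind at its start and repeats after them, and it lies from 93393699 to 93399442. It had 242 and 28 counts and was 10.3-fold lower with TNF-α (log2 ratio -3.27, interval -3.99 to -2.80). Crnn, which encodes cornulin, had 6 counts in each library (log2 ratio -0.20), and its interval of -2.16 to 1.64 did not reach the ratios of Flg and Rptn. Flg2 had 6 counts in the control library and 0 with TNF-α, and Hrnr, the hornerin gene, had 4 and 1. Together the 5 genes of this type had 15.7 CPM in the control and 1.26 CPM with TNF-α. Tchh, a trichohyalin gene of the same type that the naming rule did not take in and that lies between Rptn and S100a11, had 2132 counts in the control library and 2780 with TNF-α. Its log2 ratio was 0.12 (interval 0.041 to 0.21), so a lower value was not common to every S100-fused type gene in the region.

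The sequences before the gene starts are shown for the 3 well-counted genes that were lower, for Lce6a, which was lower too, and for S100a11, which was nearly equal between the libraries. Each gives the 150 bases that end just before the start of the gene in RefSeq (GRCm38.p6), 5′ to 3′ on the strand of the gene, with matches to the AP-1 letters TGANTCA in capitals (none in Lce6a). AP-1, a dimer of Fos and Jun proteins, is a transcription factor known to act at involucrin and other genes of the cluster.
Ivl, chr3:92573736-92573885, minus strand: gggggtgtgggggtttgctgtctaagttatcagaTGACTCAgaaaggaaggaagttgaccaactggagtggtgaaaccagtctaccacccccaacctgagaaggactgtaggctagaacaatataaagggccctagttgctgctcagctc
Flg, chr3:93273396-93273545, plus strand: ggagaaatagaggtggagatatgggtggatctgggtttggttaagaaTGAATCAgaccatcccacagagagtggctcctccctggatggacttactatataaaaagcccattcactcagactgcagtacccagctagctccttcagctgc
Rptn, chr3:93393549-93393698, plus strand: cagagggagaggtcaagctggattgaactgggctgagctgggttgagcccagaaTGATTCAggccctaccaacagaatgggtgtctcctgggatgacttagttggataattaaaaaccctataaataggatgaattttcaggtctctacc
Lce6a, chr3:92621661-92621810, minus strand: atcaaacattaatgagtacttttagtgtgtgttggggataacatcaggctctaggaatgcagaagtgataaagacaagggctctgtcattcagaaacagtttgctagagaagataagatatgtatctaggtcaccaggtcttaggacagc
S100a11, chr3:93520346-93520495, plus strand: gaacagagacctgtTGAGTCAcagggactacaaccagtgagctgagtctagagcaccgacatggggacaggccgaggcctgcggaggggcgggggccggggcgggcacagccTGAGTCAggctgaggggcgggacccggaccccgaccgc

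Counted from the gene start, the match began at position -116 in Ivl, -103 in Flg and -96 in Rptn. RefSeq windows of 250 bases before to 50 after the start were given for 51 members, in 55 windows, and the letters were searched on both strands. TGANTCA was found in 17 of the 55 windows (30.9%), beside 7.81% of all 32851 windows. The 17 genes were 9 of 14 Sprr genes, 6 of 7 of the envelope and filaggrin-type genes, 2 of 10 S100A genes and 0 of 20 Lce genes. The Sprr2 genes are copies of one another, and in 7 of them a match began between positions -198 and -193, so these windows are not independent. Members with and without the letters were found both among the lower genes and among those within 2-fold. Of 9 compared members with the letters, 4 were more than 2-fold lower (Flg, Ivl, Rptn and Sprr2h). The other 5 were within 2-fold, among them S100a11 with 2 matches. Of 14 compared members without them, 3 were lower (Lce1b, Lce6a and Sprr4) and 11 were within 2-fold. Of all genes compared, 6.62% were lower. Lce1b, Lce6a and Sprr4 passed the filter on their control counts alone. Sprr2h passed it with 8 control and 2 TNF-α counts, and its interval (-5.53 to 0.065) took in no difference. NF-κB letters (GGG and TTCC with any 3 bases between) were in 3.64% of the member windows and 5.56% of all, STAT letters (TTCNNNGAA) in 5.45% and 8.3%, and C/EBP letters (TTGNNNAA) in 45.5% and 36.7%. No AP-1 match in a member window overlapped a match of another motif. A match is a run of letters and not a measured binding site.

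Sprr1a, which encodes a small proline-rich protein that bridges other envelope proteins and is also made by stressed or injured epithelia, was the most counted Sprr gene. It had 236 control counts and 184 with TNF-α, and its log2 ratio of -0.61 (interval -0.90 to -0.33) was within 2-fold. Sprr4 had 48 counts in the control library and 0 with TNF-α. Set against 3 counts, which a count of 0 allows, and with the 48 counts taken as they stand, it was at least 19.2-fold lower. The interval that also covers the counting error of the 48 ended at a log2 ratio of -3.91. Its listed model is 231 bases long, so its 48 counts came to 13.2 TPM, close to the 18.5 TPM of Sprr1a in the same library. Sprr2h had 8 and 2 counts, and its interval (-5.53 to 0.065) took in no difference. Sprr2a2 had 10 and 18 counts, but 94.7% of the distinct 75-base stretches of its transcripts also occur in another gene, mostly Sprr2a1, so its value is uncertain. The 11 Sprr2 genes together had 0.449 control CPM and 0.6 CPM with TNF-α (log2 ratio 0.39, interval -0.43 to 1.30). Of the Sprr genes below 10 counts, Sprr2a1 had 0 control and 8 TNF-α counts, Sprr2a3 0 and 4, Sprr2d 2 and 0, and Sprr1b 4 and 0. Sprr3 and 6 Sprr2 genes (Sprr2b, Sprr2e, Sprr2f, Sprr2g, Sprr2i and Sprr2k) had 0 counts in both.

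Among the 21 Lce genes, whose products join the envelope late, 14 had 0 counts in both libraries and 5 were compared. Lce6a (92620081 to 92621660) had 49 counts in the control library and 2 with TNF-α. It was 29.3-fold lower without the prior count and had a log2 ratio of -3.86 with it. Its counting interval was wide (log2 -7.96 to -2.94). Lce1b had 15 and 2 counts (log2 ratio -2.27, interval -6.34 to -1.06). The lower counts of these genes were not shared by Lce1g, with 48 and 59 counts, or Lce1h, with 28 and 30, whose log2 ratios were 0.037 (interval -0.54 to 0.62) and -0.15 (-0.95 to 0.64). Lce1a1 had 6 and 4 counts. Lce1e had 4 and 0 and Lce1f 0 and 4. The 14 Lce1 genes together had a log2 ratio of -0.28 (interval -0.70 to 0.13). Each compared Lce1 gene shared 4.94% to 8.81% of its 75-base stretches with another gene, and Lce6a shared none. The 6 Lce3 genes, Lce1a2, Lce1c, Lce1d, Lce1i, Lce1j, Lce1k, Lce1l and Lce1m had 0 counts, which allows each a level of up to 0.0673 CPM without TNF-α and 0.0562 CPM with it. Lor, which encodes loricrin, the main envelope protein of the epidermis, had 15 and 12 counts (log2 ratio -0.51, interval -1.81 to 0.61), so the control cultures held many Ivl counts and very few from Lor.

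Pglyrp3 encodes a secreted peptidoglycan recognition protein that kills bacteria. It lies from 92014583 to 92031582 on the plus strand, next to Lor. It had 26 counts in the control library and 296 with TNF-α, so it was 9.51-fold higher with TNF-α (log2 ratio 3.16, interval 2.67 to 3.89), higher than 99.3% of all compared genes. Its level per length was 1.49 TPM in the control and 13.7 TPM with TNF-α, just above the 11.7 TPM of Sprr1a there. Pglyrp4, its neighbour on the other side of a gap of 1273.1 kb that holds no member, had 8 and 3 counts (log2 ratio -1.18, interval -4.22 to 0.38), too few for a direction. Crct1, a small cysteine-rich gene of the complex, had 8 and 4 counts (log2 ratio -0.93, interval -3.44 to 0.64).

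**Figure D3:**
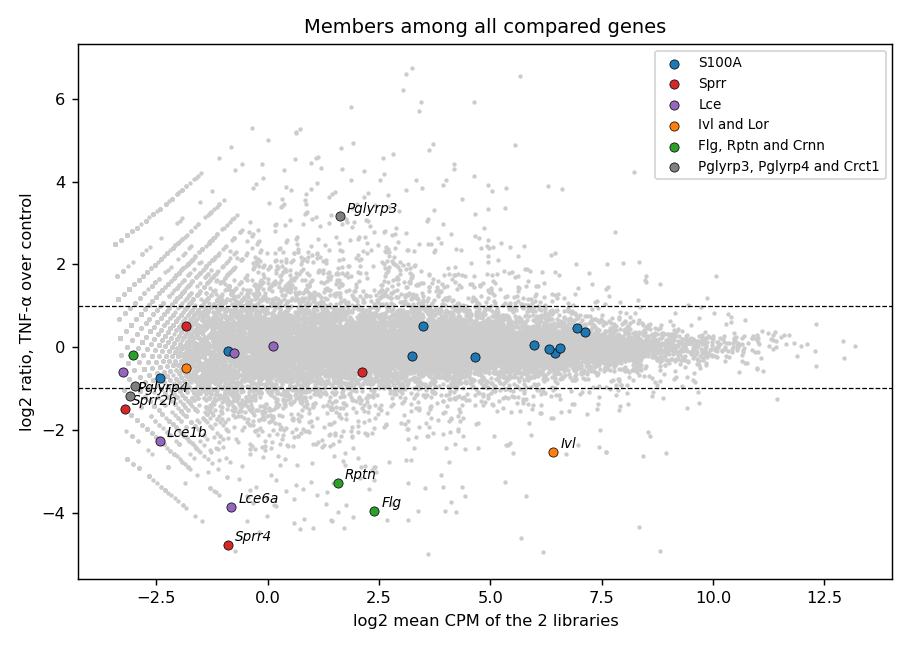
log2 ratio of TNF-α over control against the log2 mean CPM of the 2 libraries, with all 20771 compared genes in grey and the 28 members in colour; dashed lines mark 2-fold. Ivl, Flg and Rptn lie at the lower fringe of the grey cloud at their level and Pglyrp3 at its upper fringe, while the S100A genes lie inside it. The lowest points at the left rest on few counts, and the value drawn for Sprr4 depends on the prior count.

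The S100A genes carried most of the counts of the cluster. Their summed level was 603.0 CPM without TNF-α and 665.7 CPM with it, and they held 77.8% of all member counts in the control library (95% Wilson interval 77.3% to 78.2%) and 94.6% with TNF-α (94.3% to 94.8%). The other members together had 172.3 CPM without TNF-α and 38.2 CPM with it, most of it Ivl. Of the 13 S100A genes, 9 had at least 200 counts, and their log2 ratios lay between -0.23 and 0.52.

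S100a10 and S100a14 had the largest gains in CPM. S100a10, whose product pairs with annexin A2 at the plasma membrane, had 4631 control counts and 7604 with TNF-α (log2 ratio 0.46, interval 0.40 to 0.51). S100a14, an epithelial family member, had 5415 and 8411 counts (log2 ratio 0.38, interval 0.33 to 0.43). S100a4, whose product binds non-muscle myosin and is linked to cell motility, had the highest ratio of the family, with 414 and 711 counts (log2 ratio 0.52, interval 0.34 to 0.70). Its counts matched those of the overlapping Gm42674 on the same strand, with 414 and 712, so the reads of the 2 genes cannot be told apart. These 3 genes were higher with TNF-α beyond counting error and stayed under 2-fold.

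S100a11, S100a6 and S100a16 were nearly equal between the libraries. S100a11, whose product binds annexin A1, had 4261 control counts and 5062 with TNF-α (log2 ratio -0.011, interval -0.07 to 0.048) and was the highest member of both, at 528.0 and 507.4 TPM. It shares 37.8% of its 75-base stretches with another gene, mostly Gm12854. S100a6, which encodes calcyclin, had 2754 and 3405 counts (log2 ratio 0.046, interval -0.027 to 0.12). S100a16 had 3599 and 4175 (log2 ratio -0.046, interval -0.11 to 0.019). For these 3 genes the interval of the difference took in 0 and no value beyond 1.5-fold.

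S100a1, S100a13 and S100a9 were slightly lower with TNF-α. S100a1, known for its role in calcium handling in muscle, had 4103 counts in the control library and 4418 with TNF-α (log2 ratio -0.15, interval -0.21 to -0.091) and stood second in level per length in both libraries, at 374.4 and 326.1 TPM. S100a13, linked to the release of proteins that lack a signal peptide, had 1207 and 1233 counts (log2 ratio -0.23, interval -0.34 to -0.11). S100a9 encodes a subunit of calprotectin, an antimicrobial complex of granulocytes and inflamed epithelia, and had 454 and 468 counts (log2 ratio -0.22, interval -0.41 to -0.027). Its partner in that complex, S100a8, had 25 and 28 counts (log2 ratio -0.09, interval -0.93 to 0.74), and these counts leave its direction unresolved. Per length, S100a9 stood far above S100a8, at 55.1 against 2.28 TPM in the control library and 45.9 against 2.07 TPM with TNF-α. S100a3 had 11 and 7 counts (log2 ratio -0.74, interval -2.52 to 0.59), S100a2 had 2 in each, and S100a5 had 0.

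Calprotectin is abundant in granulocytes, so leukocyte markers were read beside these values, although the sort left out cells that carry the leukocyte marker CD45 before culture. The 15 markers together had 20.9 CPM without TNF-α and 17 CPM with it. Ly6g was at 0 in both libraries, and Elane (4 and 0 counts), Cxcr2 (0 and 6) and Adgre1 (0 and 2) were near 0. Ngp had 270 and 258 counts and Ltf 212 and 193, or 6.06 and 4.76 of the control CPM. Lyz2 had 114 and 109 counts, Csf1r 92 and 81, Cd68 83 and 75 and Itgam 50 and 40. Mpo had 37 and 40, Ptprc 26 and 38, Mrc1 20 and 17 and Csf3r 8 and 10. Among the 11 with at least 10 counts, 1 (9.09%) had a log2 ratio above 1, near the 8.56% of all genes compared. It was Camp, with 14 control counts and 40 in the TNF-α library (log2 ratio 1.15). Its interval of 0.35 to 2.25 was not wholly past 2-fold. The part of leukocytes in the counts of S100a8, S100a9, Ngp and Ltf was not tested. The labelled cell type was checked too. The basal keratin genes Krt14 and Krt5 had 5155.5 and 2455.6 CPM in the control library and differed by log2 ratios of -0.082 and 0.16, and the luminal keratin genes Krt8 and Krt18 were also well counted, at 1212.9 and 629.4 CPM. Of 6 basal markers compared, 1 was more than 2-fold lower with TNF-α (16.7%), the gene Oxtr. Of 7 luminal markers, 2 were (28.6%), the hormone receptor genes Esr1 and Pgr. Both shares stand beside 6.62% of all genes, and 0 markers of either list were higher, beside 8.56%. The basal genes Trp63, Acta2 and Myh11 had log2 ratios of 0.029, -0.20 and -0.52. The luminal genes Krt8, Krt18, Krt19, Elf5 and Epcam had -0.10, -0.28, -0.84, -0.63 and 0.29.

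Genes that work with the envelope but lie outside the complex were lower in part. The 15 listed are transglutaminases, plakins, keratins of the upper epidermis and other late proteins. Of 14 compared, 6 were more than 2-fold lower, 0 were higher and 13 had a log2 ratio below 0, with a median of -0.81. The share lower was 42.9%, beside the 6.62% of all genes given above, and the share higher among all genes was 8.56%. Those 6 were Krt10, Krt1, Krtdap, Krt2, Casp14 and Evpl. Krt1 and Krt10, which form the filaments that filaggrin bundles, had 1775 and 4433 counts in the control library and 172 and 214 with TNF-α, log2 ratios of -3.61 (interval -3.86 to -3.40) and -4.62 (-4.84 to -4.43), although the counts of Krt10 are uncertain because Gm11940 overlaps it on the opposite strand. Krt2, another keratin of the upper epidermis, had 8 and 3 counts (log2 ratio -1.18, interval -4.22 to 0.38), too few for a direction. Krtdap, a keratinocyte differentiation gene, had 39 and 10 counts, and Casp14, a caspase that takes part in filaggrin breakdown, had 176 and 95 (log2 ratio -1.13). Evpl, the envoplakin gene, lay just past the threshold, with 12174 and 7280 counts. The transglutaminase gene Tgm1 (log2 ratio -0.55), Ppl (-0.59) and Cdsn (-0.69) stayed within 2-fold, and Dmkn was the highest of the list at 0.18. The 3 epidermal keratin markers Krt1, Krt10 and Krt2 are among the 6 genes above, so they are not a separate observation. Together they had 139.5 CPM without TNF-α and 7.29 CPM with it, of which Krt10 held 99.5 and 4.01. Their direction was that of Ivl and Flg, and their part in those values was not tested.

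Of 22 regulators of cornification compared, 3 were more than 2-fold lower (13.6%, beside 6.62% of all genes) and 0 higher (beside 8.56%), with a median log2 ratio of -0.31. The 3 were the AP-1 genes Fosb (1115 and 311 counts, log2 ratio -2.09, interval -2.29 to -1.92) and Fos (11006 and 4702 counts, -1.49, -1.54 to -1.44), and Notch1, which encodes a receptor that promotes differentiation of keratinocytes (13875 and 7502 counts, -1.15, -1.19 to -1.11). The other AP-1 genes were spread, from Jun at -0.71 and Jund at -0.53 to Junb at -0.057 and Fosl1 at 0.21. Klf4, Grhl3 and Zfp750, which encode transcription factors of the epidermal barrier, lay at -0.39, -0.31 and -0.49, and Trp63, the master factor of stratified epithelia, lay at 0.029. Prdm1, a repressor of the late keratinocyte, was the highest at 0.93. Of the 10 receptors and binding partners of S100 proteins, 0 lay past 2-fold (beside 15.2% of all genes) and the median was -0.029. Anxa2, the partner of S100a10, had a log2 ratio of 0.14, and Anxa1, the partner of S100a11, had -0.21. The receptor genes Tlr4 and Ager had -0.18 and 0.31, the lowest of the list was Ahnak at -0.60, and Bsg lay beside Ager at 0.31.

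**Figure D4:**
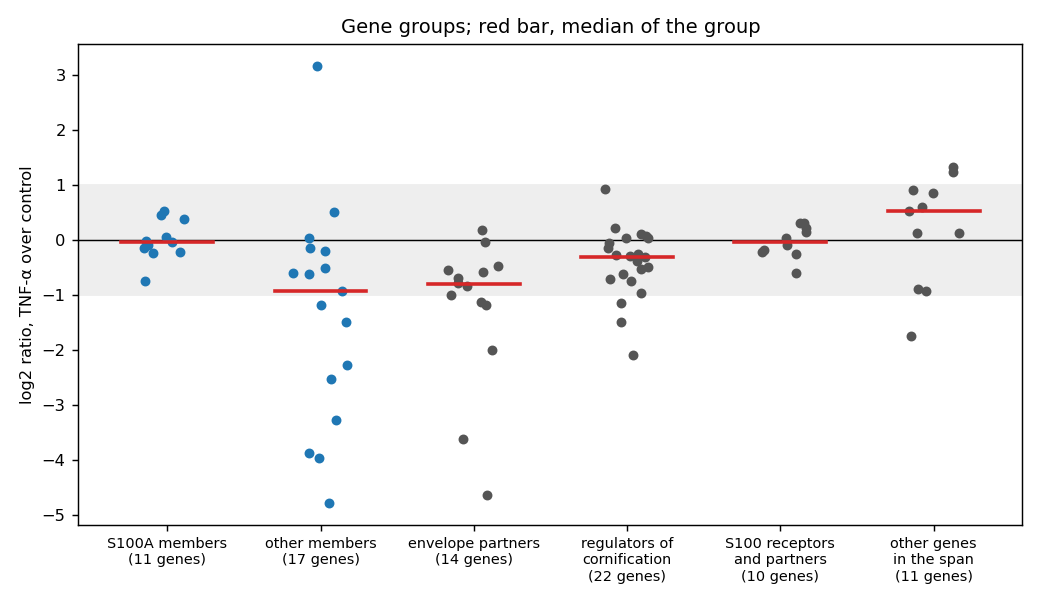
log2 ratio of TNF-α over control for each compared gene of 6 groups, with the median of each group as a red bar and the grey band marking ratios within 2-fold. S100A members and the partners of S100 proteins lie around 0, and the other members and the envelope partners reach far below the band.

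Few of the other genes in the region were counted well enough to compare. Within the span of the members lay 62 other listed genes, of which 11 had at least 10 counts. Of these, 2 were more than 2-fold higher (Gm5850 and Rplp0-ps1) and 1 was lower (S100a7a), or 18.2% and 9.09%, beside 8.56% and 6.62% of all genes. Their median log2 ratio was 0.52, which is the value of Gm42674, the gene whose reads cannot be told apart from those of S100a4. S100a7a, a psoriasin-like S100 gene whose name the rule did not match, had 66 counts in the control library and 22 with TNF-α (log2 ratio -1.75, interval -2.61 to -1.13). Its ratio was lower than that of any compared S100A member, but the wide interval of S100a3 (-2.52 to 0.59) took in this value. Rptn and S100a11 lie 121.0 kb apart and had log2 ratios of -3.27 and -0.011.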

How the data were processed

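Colonies/organoids from mouse mammary basal cells were profiled by bulk RNA-seq, with 1 control and 1 TNF-α library. The authors deposited 1 table of raw read counts per gene with exon coordinates and summed exon length. GRCm38 is listed in the submitters' processing notes, and the aligner, counting tool, annotation and strand setting are not given in the sources used here. Among rare genes, 2172 had 2 control counts and 618 had 1, as when both ends of a pair are counted, which would make the counting intervals too narrow. The series text speaks of a microarray, but the values are sequencing counts.

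Counts were scaled by TMM (edgeR 4.0.16, R 4.3.3), with a TNF-α to control size ratio of 1.2. A count of 10 was worth 0.224 and 0.187 CPM. Genes with at least 10 summed counts were compared. TPM used the deposited lengths. As the design has no replicates, the quasi-likelihood test of edgeR was not fitted and no p-value is given. Members with at least 200 counts are described in full, as are S100a8, S100a9, Flg and Ivl, and of the rest those past 2-fold, with the members of the other lists that were past 2-fold, highest or lowest. Genes such as Tchh, Lce1g, Lce1h, Trp63, Klf4, Ngp and Anxa2 were named after their values were seen. The members, lists and tests were chosen with earlier results of these data known. The calculation was tested on simulated data. Scripts ran under Python 3.11.15 (scipy 1.17.1, pandas 2.3.3, numpy 2.4.6), with figures by matplotlib 3.10.9. Alternatives were other scalings (DESeq2 1.42.0 size factors, upper quartile, totals), filters, prior counts, folds and call rules, thinning, halved counts and summed copies. A minimum of 200 counts was added after seeing the data.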

Additional observations from a re-analysis of the deposited data

How the results depend on the processing

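No paired analysis was possible because the labels give 1 control and 1 TNF-α library. Leaving out a replicate was not possible either. The 8 members lower and 1 higher became 13 and 4 with no filter, where 37 members were compared. The number lower was 5 of 17 compared with at least 1 CPM in a library and 5 of 22 with halved counts. With at least 200 counts it was 3 of 14, beside 2.87% of all genes. The share of all genes was not computed for no filter, 1 CPM or halved counts, so those counts of members have no background beside them. The median over members outside the S100A family, -0.93, ranged from -2.90 with at least 1 CPM to -0.61 with halved counts, and that over the S100A genes from -0.068 to -0.011. The median of S100 genes outside chromosome 3 went from 0.70 to -1.06 with no filter, where S100z entered. The filters and summed copies could not change the ratio of a single member. Members with few counts had wide intervals (Lce6a, -7.96 to -2.94), so staying inside them is a weak check. Of 205 values of 20 single members, 203 stayed within their counting interval. The exceptions were Sprr4 with a prior count of 5 (-3.53) and with halved counts (-3.83). Pglyrp4 moved within 2-fold with a prior count of 5 (-0.83) and after thinning of the TNF-α counts to the control total. With halved counts the interval of S100a9 took in 0 (-0.49 to 0.054). Depth limits the Lce and Sprr genes most, since 31 of the 59 members had fewer than 10 counts.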

Other observations

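Outside chromosome 3, 3 further S100 genes were listed. S100g, which encodes the calcium buffer calbindin-D9k, had 4 counts in the control library and 36 with TNF-α, a log2 ratio of 2.45 (interval 1.43 to 4.86). S100b, best known from glia, had 42 and 23 counts (log2 ratio -1.06, interval -1.93 to -0.36), and S100z had 2 and 0. The fibroblast genes Pdgfra and Col1a1 had log2 ratios of -0.02 and 0.067, while Dcn had 184 counts in the control library and 582 with TNF-α (log2 ratio 1.39, interval 1.16 to 1.65). These values come from 1 library per condition.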
